A study of Mus musculus with 4 samples.

Results

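The transcription factors that drive or restrain the commitment of stromal cells to the adipocyte fate were compared between Mmp3-positive cells and Mmp3-negative cells. Both came from the stromal vascular fraction of subcutaneous fat, which is what remains of the digested tissue once the floating fat cells are removed. The set held 10 genes of the 35580 in the tables, chosen by name as factors of white and beige adipocyte commitment and differentiation: Pparg, Rxra, Cebpa, Cebpb, Cebpd, Ebf1, Ebf2, Zfp423, Zfp521 and Prdm16. There were 2 libraries of Mmp3-positive cells and 2 of Mmp3-negative cells, all from wild-type C57BL/6 mice, with no other genotype or treatment in the labels. Not given in the sources used here were the age and sex of the mice, whether separate animals were used for each library, and the method of separating the cells, for which the labels name only a reagent. P-values therefore measured only the spread between these libraries, which may be technical.

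Adipogenesis proceeds as a cascade. C/EBPβ and C/EBPδ are induced early by adipogenic hormones and switch on Pparg and Cebpa, whose products then maintain each other and activate the genes of the mature fat cell. PPARγ, a nuclear receptor that binds fatty acid ligands, works as a heterodimer with partners such as RXRα. EBF1, EBF2 and the zinc finger protein ZFP423 act upstream in progenitors, ZFP521 opposes ZFP423 and EBF1, and PRDM16 and EBF2 direct cells towards the brown and beige programme.

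Pparg and Zfp423 each have alternative start sites that give different proteins, and the deposited values are per transcript, so the sequences around these starts are shown because the division of reads between them is described below. RefSeq promoter windows, 250 bases before to 50 bases after a start site on GRCm38.p6, were found for 7 of the 10 genes and numbered 12. The letters of 3 motifs bound by proteins of this set were searched on both strands: the C/EBP motif TTGCNNAA, the EBF motif CCCNNGGG and the nuclear receptor half-site AGGTCA, a part of the element bound by PPARγ with RXRα. Capitals in the lines that follow mark matches to any of these.
Pparg upstream start, where Pparg-202 begins, chr6:115360894-115361193, plus strand: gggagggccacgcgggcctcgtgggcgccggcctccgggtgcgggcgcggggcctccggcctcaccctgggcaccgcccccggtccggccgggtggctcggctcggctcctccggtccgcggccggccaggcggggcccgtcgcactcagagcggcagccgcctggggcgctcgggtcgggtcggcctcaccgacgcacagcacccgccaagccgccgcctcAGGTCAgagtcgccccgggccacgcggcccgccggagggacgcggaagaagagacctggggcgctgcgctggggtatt
Pparg downstream start, where Pparg-201 begins, chr6:115421816-115422115, plus strand: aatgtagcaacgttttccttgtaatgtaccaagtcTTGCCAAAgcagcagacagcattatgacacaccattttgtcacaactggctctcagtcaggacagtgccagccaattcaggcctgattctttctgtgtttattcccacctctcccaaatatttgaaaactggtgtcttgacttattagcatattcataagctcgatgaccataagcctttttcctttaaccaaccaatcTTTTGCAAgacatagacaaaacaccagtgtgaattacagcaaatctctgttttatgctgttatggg
Zfp423 upstream start, where Zfp423-202 begins, chr8:87959546-87959845, minus strand: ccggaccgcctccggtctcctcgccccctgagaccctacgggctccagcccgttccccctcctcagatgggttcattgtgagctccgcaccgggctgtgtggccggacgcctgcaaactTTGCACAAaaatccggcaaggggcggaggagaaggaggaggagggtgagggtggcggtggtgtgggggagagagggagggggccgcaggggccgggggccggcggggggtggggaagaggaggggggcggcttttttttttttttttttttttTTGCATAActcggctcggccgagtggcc
Zfp423 downstream start, where Zfp423-203 begins, chr8:87804390-87804689, minus strand: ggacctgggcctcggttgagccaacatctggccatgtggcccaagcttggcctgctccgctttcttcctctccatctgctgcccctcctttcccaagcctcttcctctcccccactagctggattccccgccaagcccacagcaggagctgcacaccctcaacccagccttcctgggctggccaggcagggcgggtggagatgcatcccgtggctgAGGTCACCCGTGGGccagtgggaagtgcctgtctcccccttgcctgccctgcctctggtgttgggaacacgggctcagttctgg

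The C/EBP letters were present in 2 of the 12 windows and in 10.8% of all 32851 RefSeq windows of this length. At the downstream Pparg start, which begins the PPARγ2 transcript, the matches began 215 and 16 bases before the start. At the upstream Zfp423 start they began 131 bases before it and at position 23 after it. The EBF letters were in 2 of the 12 windows, of Cebpb and of the downstream Zfp423 start, and in 13.7% of all windows. The half-site was in 4 of the 12, among them both Pparg windows that begin PPARγ1 transcripts, and in 16.3% of all. The 3 motifs overlapped each other in none of the 12 windows. These matches are letters in a window and were not tested as binding sites.

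All 10 genes were detected in all 4 libraries, and none passed the test for a difference between Mmp3-positive and Mmp3-negative cells. In edgeR's quasi-likelihood test with Benjamini-Hochberg adjustment over all 14185 genes tested, 0 of the 10 passed an adjusted p of 0.05, where 0.0211% of all genes tested did (0.00705% higher and 0.0141% lower in Mmp3-positive cells). At an unadjusted p under 0.05 the count was also 0 of 10, against 8.87% of all genes tested. The DESeq2 Wald test called 0 of the 10 as well, at a background of 6.66% of genes. The median log2 fold change was -0.23 over the 10 genes and 0.02 over all genes tested. The 95% intervals of the fold changes were narrowest for Ebf1, whose interval ran from 0.616-fold to 1.15-fold, and widest for Pparg, from 0.336-fold to 12.4-fold.

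**Figure D1:**
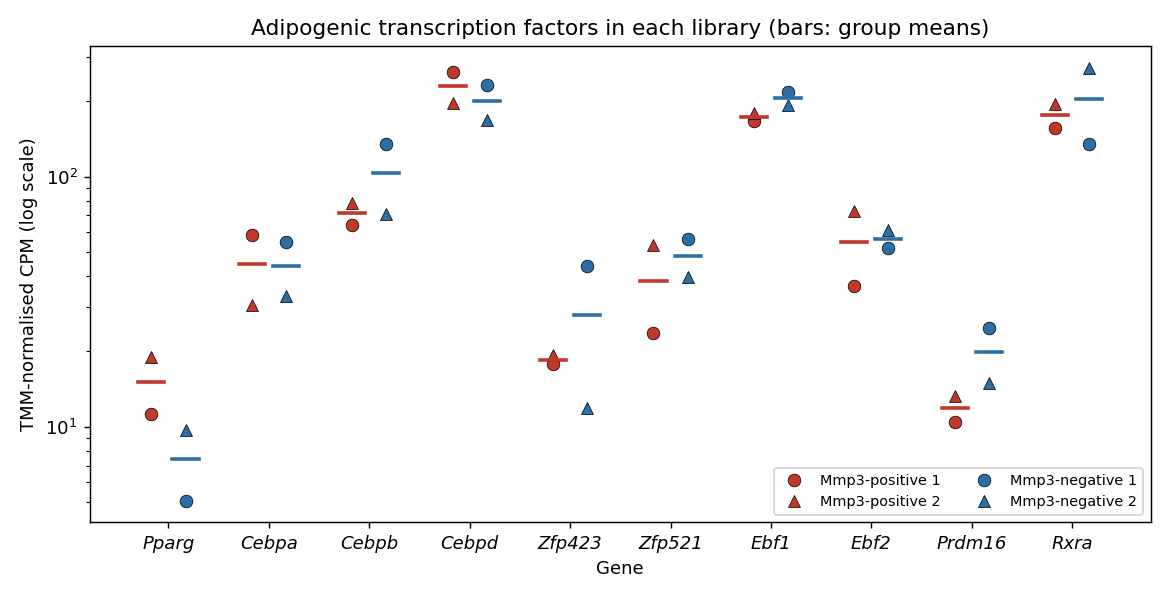
Level of each gene in TMM-normalised CPM (log scale) in the Mmp3-positive libraries (red, left) and the Mmp3-negative libraries (blue, right), with circles for replicate 1, triangles for replicate 2 and bars for group means. The groups stand apart for Pparg, with 11.3 and 19.0 CPM in Mmp3-positive against 5.07 and 9.74 CPM in Mmp3-negative libraries, and for Ebf1 and Prdm16, and they overlap for the other 7 genes.

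Levels here are counts scaled to a common library size by TMM (CPM), with n = 2 libraries per group throughout, and each fold change is Mmp3-positive over Mmp3-negative. The libraries held between 17693755 and 20286221 estimated counts. Mmp3 itself, which defined the groups, was 32.0-fold higher in Mmp3-positive cells (edgeR adjusted p = 0.00793), which checks the labels. It passed in 11 of 13 alternative analyses, and not with limma on log2(TPM + 1) or log2(TPM + 0.1) (limma adjusted p = 0.545 and 0.402). Several markers of stromal fibroblasts were abundant in both groups, with Pdgfra at 1657 and 1687 CPM in Mmp3-positive and 928 and 1063 CPM in Mmp3-negative libraries. Others were low, such as Lum at 3.45 to 14.8 CPM and Cd34 at 18.8 to 54.0 CPM over the 4 libraries. Summed levels of the markers of other cells are given near the end. In bulk samples, fewer cells of a type and less RNA per cell cannot be told apart.

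Pparg, the receptor at the centre of the fat cell programme, lies on chromosome 6 of GRCm38 from 115360951 to 115490399 (ENSMUSG00000000440). It stood at 11.3 and 19.0 CPM in the Mmp3-positive libraries and at 5.07 and 9.74 CPM in the Mmp3-negative libraries. Both Mmp3-positive values were above both Mmp3-negative values; the lowest Mmp3-positive and the highest Mmp3-negative library lay close together. The fitted fold change was 2.04 (log2 1.03, standard error 1.05, edgeR adjusted p = 0.983). These levels rest on 214 and 373 estimated counts in Mmp3-positive and 94 and 169 in Mmp3-negative libraries, the fewest of the 10 genes in both Mmp3-negative libraries. With an offset for average transcript length the log2 fold change was 0.25. With only transcripts annotated as protein-coding it was 1.53. In TPM, a unit normalised for transcript length, the groups overlapped. Pparg stood at 8.09 and 26.1 TPM in Mmp3-positive and at 2.39 and 28.7 TPM in Mmp3-negative libraries. In Mmp3-negative replicate 2, 87.5 of its 169 counts lay on a partial transcript of 497 bases and 80.3 on a non-coding one of 915 bases.

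Rxra, a partner of PPARγ, is on chromosome 2 from 27676440 to 27762957 (ENSMUSG00000015846). Its level was 156 and 195 CPM in Mmp3-positive libraries and 135 and 273 CPM in Mmp3-negative libraries, so the Mmp3-negative pair enclosed the Mmp3-positive one. The log2 fold change was -0.21 (standard error 0.36, edgeR adjusted p = 0.999). The ratio of Pparg to Rxra counts, which needs no scaling between libraries, was 0.0723 and 0.0973 in Mmp3-positive and 0.0376 and 0.0357 in Mmp3-negative libraries. Both Mmp3-positive count ratios were thus above both Mmp3-negative ones, and counts are not corrected for transcript length. With 2 libraries against 2 an exact two-sided permutation test cannot go below p = 0.333, and the ratio was looked at after the gene values were seen.

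Among the C/EBP factors, Cebpa (chromosome 7, 35119293 to 35121928, ENSMUSG00000034957), which sustains Pparg in differentiating cells, had nearly equal group means. They were 44.6 ± 19.7 CPM in Mmp3-positive and 44.1 ± 15.4 CPM in Mmp3-negative cells (SD, n = 2). The libraries stood at 58.5 and 30.7 CPM in the Mmp3-positive group and at 55.0 and 33.3 CPM in the Mmp3-negative group. In each group replicate 1 was high and replicate 2 low, so the spread lay along the set number of the labels and not between the groups. The fold change was 1.01, with an interval from 0.445 to 2.29.

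Cebpb, an early factor that is also induced by stress and inflammation, is a gene with a single exon on chromosome 2 (167688915 to 167690418, ENSMUSG00000056501). It stood at 64.0 and 78.5 CPM in Mmp3-positive and at 135 and 70.7 CPM in Mmp3-negative libraries. The Mmp3-negative replicate 1 stood apart above the other 3 libraries, and the groups overlapped. The log2 fold change was -0.53 (standard error 0.37, edgeR unadjusted p = 0.202, adjusted p = 0.887), the smallest p of the 10 genes. Without Mmp3-negative replicate 1 the log2 fold change was 0.0064, and without Mmp3-negative replicate 2 it was -0.92 (edgeR adjusted p = 0.134).

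Cebpd, the other early C/EBP factor, on chromosome 16 (15887286 to 15891031, ENSMUSG00000071637), had the highest CPM of the 3 C/EBP genes in every library. It measured 262 and 198 CPM in Mmp3-positive libraries and 232 and 169 CPM in Mmp3-negative libraries, again with replicate 1 above replicate 2 in both groups. The fold change was 1.15, with an interval from 0.751 to 1.75 (edgeR adjusted p = 0.998). Immediate early and stress genes, which share their inducers with Cebpb and Cebpd, had 2 of 20 members lower in Mmp3-positive cells past the threshold. Over all genes tested the same 2 were the only ones in that direction (0.0141%), so that share is no separate background. These 2 were Hspa1a and Hspa1b, a nearly identical pair for the inducible chaperone Hsp70 between which reads cannot be divided with certainty. Their log2 fold changes were -2.73 and -2.43 (edgeR adjusted p = 0.0250 and 0.0273). Both kept their direction in all 13 alternatives and passed the threshold in 7. They did not pass with the length offset, with protein-coding transcripts only, with limma on either TPM scale or without either Mmp3-positive library, where edgeR and limma adjusted p-values ran from 0.0516 to 0.545. The summed level of the 20 genes was 4457 and 4694 CPM in Mmp3-positive and 10600 and 10640 CPM in Mmp3-negative libraries. Hspa1a and Hspa1b made up 814.5 and 862.6 CPM of these sums in Mmp3-positive and 5320 and 4664 CPM in Mmp3-negative libraries. The other 18 genes, summed apart after these values were seen, came to 3643 and 3831 CPM in Mmp3-positive and 5279 and 5976 CPM in Mmp3-negative libraries. In edgeR's test 12 of the 20 had an unadjusted p under 0.05, all lower in Mmp3-positive cells, against 8.87% of all genes tested. Both Mmp3-positive values were below both Mmp3-negative values for 16 of the 20, against 17.3% of all genes tested. The list was chosen with earlier results of these data known. Whether the stress genes and the C/EBP genes are linked here was not tested.

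Ebf1, an upstream factor of progenitors that also acts in B cells, is on chromosome 11 (44617317 to 45008091, ENSMUSG00000057098). It was at 166 and 180 CPM in Mmp3-positive and at 217 and 194 CPM in Mmp3-negative libraries. Both Mmp3-positive values were below both Mmp3-negative values, and the pairs were the tightest of the 10 genes. The fold change was 0.842 (log2 -0.25, standard error 0.18, edgeR unadjusted p = 0.223, adjusted p = 0.907). The B cell genes Cd79a and Cd79b had 0 counts in all 4 libraries, and a further one, Ms4a1, was at 0 and 1.73 CPM in Mmp3-positive and 0 and 0.115 CPM in Mmp3-negative libraries.

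Ebf2, its relative that marks brown and beige progenitors, on chromosome 14 (67233292 to 67430918, ENSMUSG00000022053), was at 36.6 and 73.1 CPM in Mmp3-positive and at 51.8 and 61.1 CPM in Mmp3-negative libraries. Here the Mmp3-positive pair enclosed the Mmp3-negative one. The fold change was 0.972, with an interval from 0.477 to 1.98.

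Zfp423, which raises Pparg in committed preadipocytes, on chromosome 8 (87661810 to 87959595, ENSMUSG00000045333), had the widest replicate gap of the 10 genes. It was at 17.8 and 19.4 CPM in Mmp3-positive libraries and at 43.8 and 11.9 CPM in Mmp3-negative libraries. The Mmp3-negative pair thus lay on either side of the Mmp3-positive pair. Its log2 fold change was -0.59 (standard error 0.77, edgeR adjusted p = 0.998), 0.63 without Mmp3-negative replicate 1 and -1.24 without Mmp3-negative replicate 2.

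Zfp521, the related zinc finger protein that represses this programme, on chromosome 18 (13687013 to 13972787, ENSMUSG00000024420), was at 23.6 and 53.1 CPM in Mmp3-positive and at 56.5 and 39.8 CPM in Mmp3-negative libraries. The groups overlapped, and the fold change was 0.797 with an interval from 0.337 to 1.88. The ratio of Zfp423 to Zfp521 counts was 0.753 and 0.364 in Mmp3-positive and 0.776 and 0.300 in Mmp3-negative libraries. In either group the library numbered 1 had the higher ratio.

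Prdm16, a coregulator of the brown and beige programme, on chromosome 4 (154316125 to 154636873, ENSMUSG00000039410), was at 10.4 and 13.3 CPM in Mmp3-positive libraries and at 24.8 and 14.9 CPM in Mmp3-negative libraries. Both Mmp3-positive values were below both Mmp3-negative values. The fold change was 0.597 (log2 -0.74, standard error 0.79, edgeR adjusted p = 0.988). With the length offset the log2 fold change was -1.64.

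**Figure D2:**
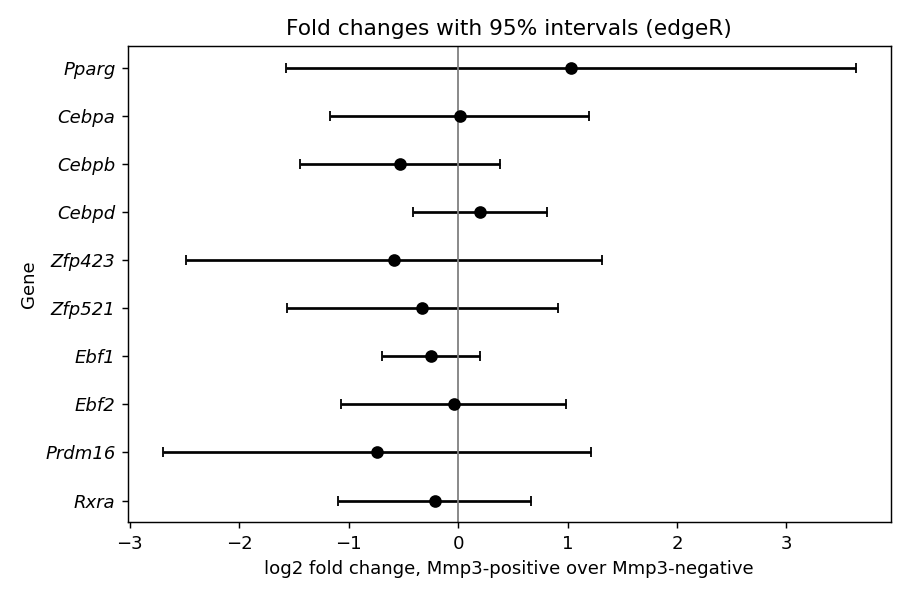
Log2 fold change of each gene, Mmp3-positive over Mmp3-negative, from the edgeR fit over all genes (points), with 95% intervals (bars). All 10 intervals include 0, from -0.70 to 0.20 for Ebf1 to -1.58 to 3.63 for Pparg.

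Groups that did not overlap numbered 1 of 10 with Mmp3-positive higher (Pparg) and 2 of 10 with Mmp3-positive lower (Ebf1 and Prdm16). Over all genes tested these shares were 22.5% and 17.3%. The libraries of the 2 set numbers did not overlap for 4 of the 10 genes, Cebpa, Cebpd, Ebf2 and Rxra, against 31.1% of all genes tested. Cebpa and Cebpd were higher in the libraries numbered 1 and Ebf2 and Rxra in those numbered 2. The median absolute log2 difference within a pair was 0.37 in the Mmp3-positive and 0.71 in the Mmp3-negative libraries over the 10 genes, and 0.48 and 0.76 over all genes tested. The Mmp3-negative pair differed more for 7 of the 10.

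Per transcript length, as the deposited TPM values, a unit normalised for length, give it within a library, Ebf1 had the highest level of the 10 genes in all 4 libraries. It reached 126 and 152 TPM in Mmp3-positive and 114 and 226 TPM in Mmp3-negative libraries. Ebf1 transcripts without a coding sequence held 42.4% and 42.5% of the gene's counts in Mmp3-positive and 32.8% and 42.1% in Mmp3-negative libraries. Among these, Ebf1-204 had counts in all 4 libraries and is 673 bases long, against 2864 to 5981 bases for the coding transcripts. The rank of Ebf1 thus includes non-coding transcripts, and an order by coding transcripts alone was not computed. Cebpb, Cebpd and Rxra followed in an order that changed between libraries, with Cebpb above Cebpd in 3 of 4 and Cebpd above Rxra in 3 of 4. Ebf2 and Cebpa came next, and each was above the other in 2 of 4 libraries. Zfp423, Pparg, Prdm16 and Zfp521 were lowest on average, and their neighbours could not be ordered except that Pparg was above Prdm16 in all 4 libraries. Zfp423 ranged from 3.78 to 48.3 TPM, a wider span than in CPM; TPM divides each transcript's counts by its length, so it varies with the transcript to which reads were assigned. Prdm16 likewise had 23.7 TPM in Mmp3-negative replicate 2, where 67.0 of its 259 estimated counts lay on a non-coding transcript of 402 bases, and 1.84 to 5.91 TPM in the other libraries.

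The tables listed 50 transcripts of the 10 genes, 8 of which had more than 1. For 5 of these 8 the transcript with the most counts was not the same in all 4 libraries, so isoform values are given as a description with no test. Transcripts with the complete PPARγ1 coding sequence, for 475 residues, took 99.5% of Pparg counts in Mmp3-positive replicate 1 and 24.8% in replicate 2. They took 0% in both Mmp3-negative libraries. The PPARγ2 transcript, with 505 residues and the fat-specific start shown above, took 0% and 31.7% in Mmp3-positive and 100% and 0.769% in Mmp3-negative libraries. The Mmp3-negative share of 100% rests on 94 counts. In Mmp3-negative replicate 2, 51.7% of counts lay on a partial coding transcript, Pparg-206, and 47.5% on a non-coding one. Neither holds a complete protein. Pparg-206, with 13.8% in Mmp3-positive replicate 2, begins in the same window as the PPARγ1 transcript Pparg-204. The 0% for PPARγ1 in Mmp3-negative replicate 2 thus refers to complete coding sequences only. A further 29.7% in Mmp3-positive replicate 2 lay on a transcript for 222 residues. The γ1 and γ2 forms therefore could not be ordered between the groups.

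Zfp423 counts lay mostly on Zfp423-203, which begins at the downstream start shown above and encodes 1167 residues, in 3 libraries. Its share was 80.8% and 99.3% in Mmp3-positive libraries and 100% in Mmp3-negative replicate 2. In Mmp3-negative replicate 1, the library where Zfp423 was high, that share was 0% and 64.3% lay on Zfp423-202, which begins at the upstream start and encodes 1292 residues. Cebpa showed how abrupt this division can be. All of its counts were on the transcript for 359 residues in 3 libraries, and all 577 counts of Mmp3-negative replicate 2 were on a shorter transcript for 159 residues that begins in the same window.

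Ebf1 counts were also divided differently among the libraries. The transcripts described were picked after their values were seen. How many of all transcripts are at 0 counts in a single group was not counted. Ebf1-202, a coding transcript for 592 residues, took 838 and 850 counts in the Mmp3-positive libraries, 26.5% and 24.1% of the gene, and 0 in both Mmp3-negative libraries. Ebf1-203, for 584 residues, took 24.3% and 30.0% in Mmp3-positive and 39.3% and 57.8% in Mmp3-negative libraries. Ebf1-201, whose protein is 1 residue shorter than that of Ebf1-202, took 6.71% and 3.44% in Mmp3-positive but 27.9% and 0.11% in Mmp3-negative libraries. The coding sequences of these forms were compared by length only. Transcripts without a coding sequence held 42.4% and 42.5% of Ebf1 counts in Mmp3-positive and 32.8% and 42.1% in Mmp3-negative libraries. Rxra-201 led in all 4 libraries, and the 467-residue form of RXRα took 83.7% and 82.5% in Mmp3-positive and 100% and 66.4% in Mmp3-negative libraries.

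**Figure D3:**
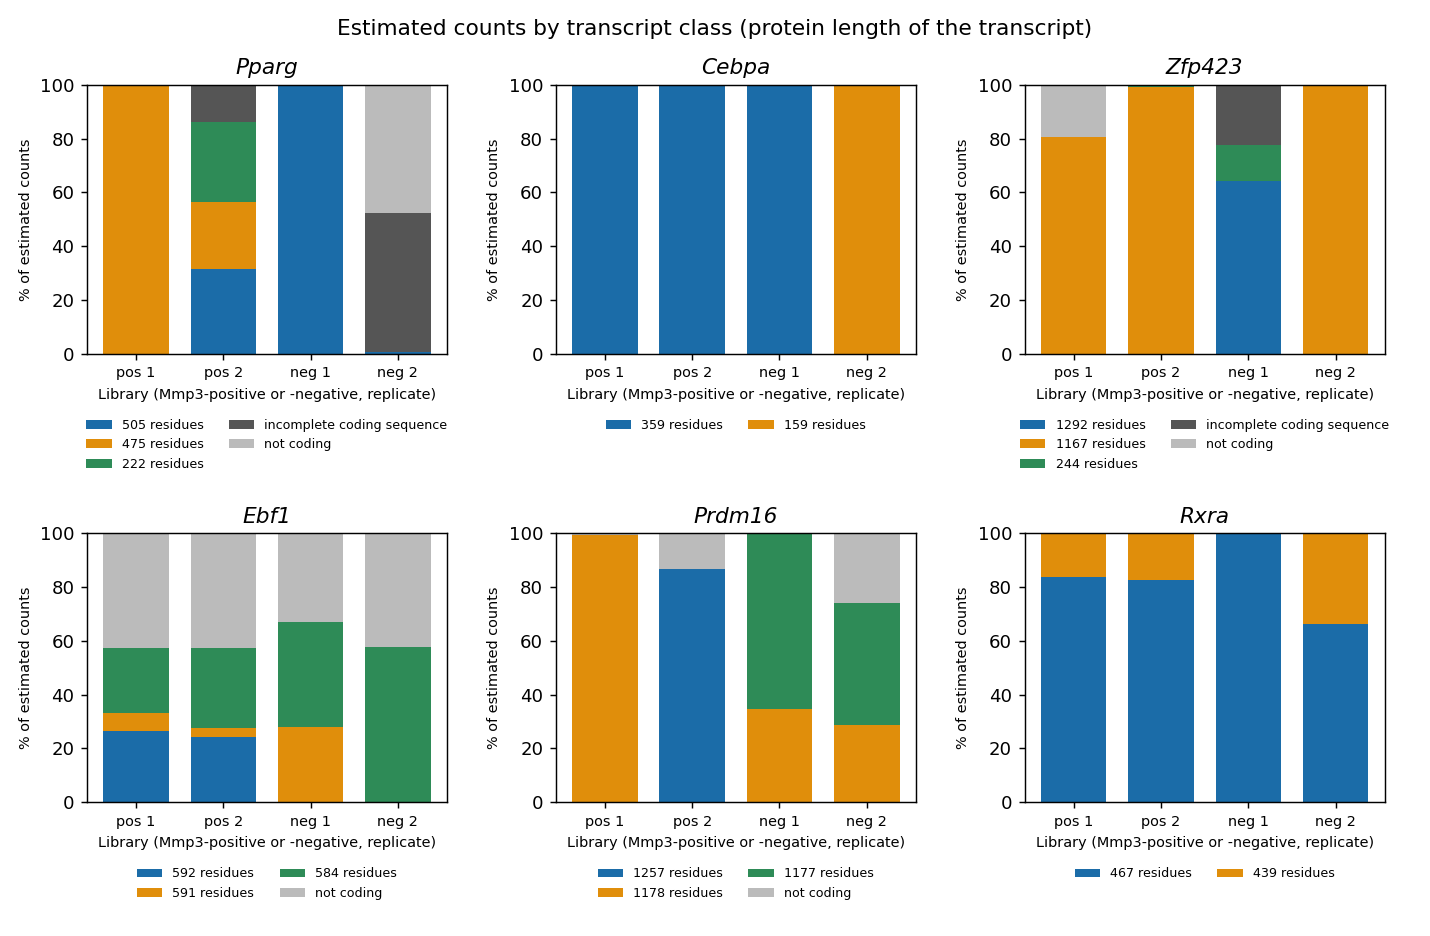
Share of each gene's estimated counts (percent) by the length of the protein that the transcript encodes, in the 2 Mmp3-positive (pos) and 2 Mmp3-negative (neg) libraries, for 6 genes. Cebpa has 100% on one transcript in 3 libraries and 100% on another in Mmp3-negative replicate 2, while the 592-residue Ebf1 form is present in both Mmp3-positive libraries, at 26.5% and 24.1%, and absent from the counts of both Mmp3-negative ones.

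Other regulators of the pathway had no member past the adjusted threshold. Of 18 further pro-adipogenic factors 0 passed the threshold, 11 had a log2 fold change above 0 and 7 below, and the median was 0.19. At an unadjusted p under 0.05 there were 5 of 18, with 1 higher and 4 lower, against 8.87% of all genes tested and 0 of the 10 factors. Srebf1, the lipogenic factor, was at 229 and 229 CPM in Mmp3-positive and 201 and 192 CPM in Mmp3-negative libraries. Klf4, an early inducer of Cebpb, was at 69.5 and 73.8 CPM in Mmp3-positive libraries, against 126 and 166 CPM in Mmp3-negative libraries (log2 fold change -1.03, edgeR adjusted p = 0.480). Zfp467, a zinc finger factor that favours adipocytes over bone cells, was at 7.16 and 3.87 CPM in Mmp3-positive and 26.7 and 35.4 CPM in Mmp3-negative libraries (log2 fold change -2.49, edgeR adjusted p = 0.480).

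Over 16 factors that restrain adipogenesis the median log2 fold change was -0.39, with 0 past the threshold, 1 at an unadjusted p under 0.05, 4 above 0 and 12 below. Hes1, a Notch target, had the smallest p and stood at 6.11 and 17.3 CPM in Mmp3-positive and 62.9 and 57.9 CPM in Mmp3-negative libraries (log2 fold change -2.37, edgeR adjusted p = 0.480). Ddit3, the stress-induced C/EBP relative CHOP that blocks the other C/EBP proteins, was at 40.0 and 32.1 CPM in Mmp3-positive and 56.6 and 61.7 CPM in Mmp3-negative libraries. PPAR partners and coregulators had a median of -0.13 over the 16 tested of 18, with 0 past the threshold and 1 at an unadjusted p under 0.05. The acetyltransferase gene Ep300 had the smallest p and a log2 fold change of -0.65 (edgeR adjusted p = 0.480). Over all 14185 genes tested, 8.87% had an unadjusted p under 0.05 in edgeR's test and 7251 had a log2 fold change above 0.

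Target genes of PPARγ and C/EBPα in mature fat cells ranged from 0 counts in all 4 libraries to 435 CPM. Of 18 such genes 14 were tested, 0 passed the threshold, 4 were above 0 and 10 below, and the median log2 fold change was -0.69. Adipoq, the adipocyte hormone adiponectin, was at 2.63 and 0 CPM in Mmp3-positive libraries and at 0 counts in both Mmp3-negative libraries. Cidec, a lipid droplet protein, and Pck1 had 0 counts in all 4. Retn was at 2.05 and 0 CPM in Mmp3-positive and 0 and 0.058 CPM in Mmp3-negative libraries. Cfd was at 0 and 1.02 CPM in Mmp3-positive and 2.37 and 0 CPM in Mmp3-negative libraries. Some other genes of the list had counts in every library. Plin1 ran from 8.84 to 20.8 CPM, Lipe from 18.1 to 21.4 CPM and Fabp4 from 1.8 to 25 CPM. Lpl was at 122.5 and 88.6 CPM in Mmp3-positive and 116.8 and 65.7 CPM in Mmp3-negative libraries. Plin4 was at 61.5 and 83.8 CPM in Mmp3-positive and 123.5 and 169.6 CPM in Mmp3-negative libraries. At an unadjusted p under 0.05 there were 5 of 14, with 1 higher and 4 lower, against 8.87% of all genes tested. Angptl4, a PPAR-responsive inhibitor of lipoprotein lipase, was at 435 and 338 CPM in Mmp3-positive and 276 and 248 CPM in Mmp3-negative libraries (log2 fold change 0.56, edgeR adjusted p = 0.480). Pnpla2, the first lipase of fat breakdown, was at 16.2 and 8.91 CPM in Mmp3-positive libraries, against 65.3 and 54.5 CPM in Mmp3-negative libraries (log2 fold change -2.25, edgeR adjusted p = 0.480). Slc2a4, the insulin-responsive glucose transporter, had 0 counts in both Mmp3-positive libraries and was at 7.23 and 8.30 CPM in Mmp3-negative libraries.

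Beige genes gave little signal. Ucp1, the thermogenic uncoupler, and Elovl3 had 0 counts in all 4 libraries, which allows up to 3 counts in each. Cidea and Cox8b had 0 counts in both Mmp3-negative libraries and 1.79 and 2.09 CPM in a single Mmp3-positive library each. Ppargc1a was at 0.316 and 0.204 CPM in Mmp3-positive and 6.10 and 0.288 CPM in Mmp3-negative libraries. Dio2 was at 7.47 and 1.88 CPM in Mmp3-positive and 0 and 14.4 CPM in Mmp3-negative libraries. Of 12 beige genes 7 were tested, among them Ebf2 and Prdm16 themselves, and 0 passed the threshold or had an unadjusted p under 0.05. Tmem26, a beige surface marker, was at 19.6 and 29.9 CPM in Mmp3-positive and 12.0 and 25.1 CPM in Mmp3-negative libraries.

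Markers of other cells are given beside these values because Ebf1, Ebf2 and Pparg are also expressed outside preadipocytes. Mural markers summed to 102 and 98.0 CPM in Mmp3-positive and 772 and 689 CPM in Mmp3-negative libraries, with 11 of 12 below 0 and a median log2 fold change of -2.82. Endothelial markers summed to 233 and 226 CPM in Mmp3-positive and 479 and 309 CPM in Mmp3-negative libraries, with 9 of the 10 tested below 0. Macrophage and leukocyte markers summed to 37.0 and 33.2 CPM in Mmp3-positive and 272 and 193 CPM in Mmp3-negative libraries, with all 11 tested below 0. Lmod1 of the mural, Cldn5 of the endothelial and Adgre1 and Laptm5 of the leukocyte markers had 0 counts in both Mmp3-positive libraries. Emcn of the endothelial and Mrc1 of the macrophage markers had 0 counts in both Mmp3-negative libraries and in Mmp3-positive replicate 1, and 63 and 29 counts in Mmp3-positive replicate 2. Lymphocyte markers summed to 5.74 and 8.60 CPM in Mmp3-positive and 52.3 and 1.33 CPM in Mmp3-negative libraries, which overlap. Stromal fibroblast markers summed to 30410 and 38270 CPM in Mmp3-positive and 22180 and 31440 CPM in Mmp3-negative libraries, with 11 of 12 above 0. None of these markers passed the threshold among all genes in edgeR's test. An unadjusted p under 0.05 was reached by 6 of 12 mural, 3 of 10 endothelial and 3 of 11 leukocyte markers. These were all lower in Mmp3-positive cells. It was also reached by 3 of 12 stromal fibroblast markers, all higher, and by 0 of 2 lymphocyte markers. The share over all genes tested was 8.87%. The part of these markers in the values of the adipogenic factors was not tested.

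**Figure D4:**
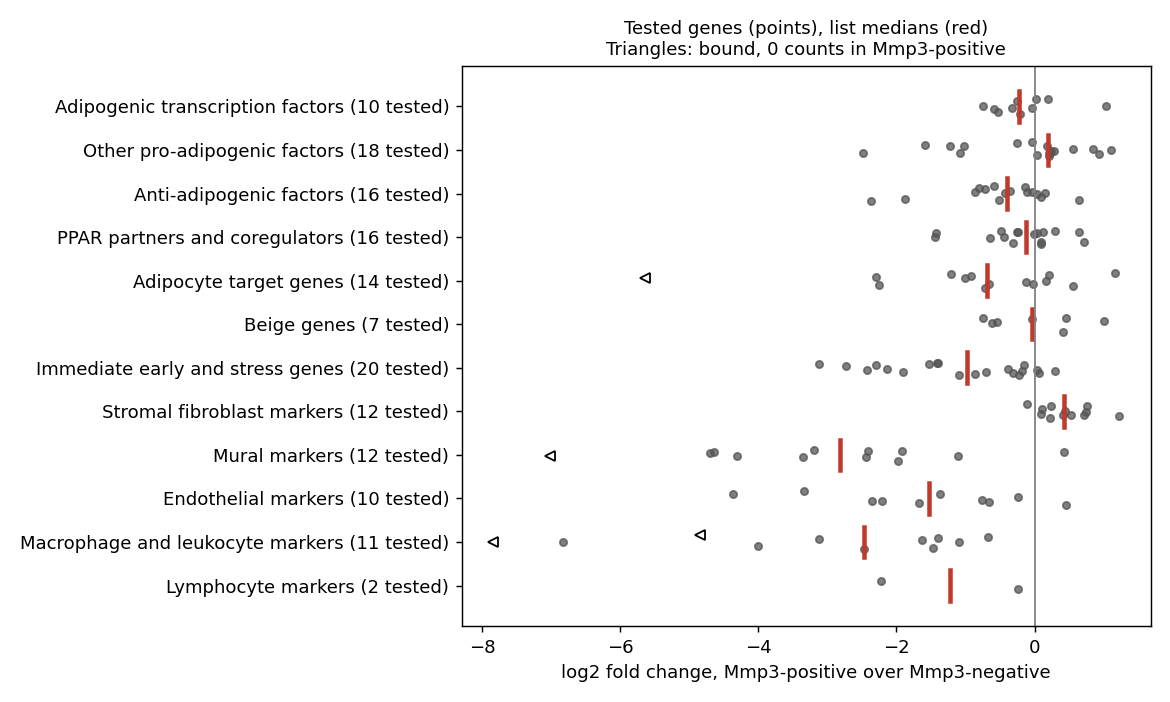
Log2 fold change of every tested gene, Mmp3-positive over Mmp3-negative, by list (points) with the list median (red line). Triangles mark genes with 0 counts in both Mmp3-positive libraries, drawn at the bound that 3 counts per library gives. The 10 adipogenic factors lie between -0.74 and 1.03, around a median of -0.23, while the mural list has a median of -2.82.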

How the data were processed

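The members and the gene lists were chosen with earlier results of these data known. RNA was extracted with a kit for fixed, embedded tissue, depleted of ribosomal RNA and made into strand-specific libraries, per the labels' protocols. Reads were quantified with kallisto 0.45.0 on build GRCm38, per the submitters' processing notes, and the authors deposited, for 115270 transcripts in each library, estimated counts with TPM values and effective lengths. Not given in the sources used here were the transcript set and the strand setting. Of these, 113580 were matched by identifier to 35580 genes of GENCODE M21 on GRCm38. Unmatched transcripts, 0.729% to 2.08% of counts, were left out.

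Gene sums of the estimated counts were rounded. Genes were kept by filterByExpr (minimum count 10), scaled by TMM and tested, Mmp3-positive over Mmp3-negative, with edgeR 4.0.16's quasi-likelihood test (R 4.3.3), two-sided, with Benjamini-Hochberg adjustment over 14185 genes and a threshold of 0.05. Standard errors came from the log2 fold change and its F statistic, and 95% intervals use the fit's degrees of freedom. A gene at 0 counts was given a limit of 3 counts per library, which covers counting error only.

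All 10 members are named. From each other list the rule took the members past the threshold, or else the 3 with the highest mean TPM and the 2 with the smallest p, and not all of these are printed. Genes described by their 0 counts or by presence in few libraries, among them Slc2a4, Adipoq, Cidec, Pck1, Ucp1, Elovl3, Cidea, Cox8b, the B cell genes, Lmod1, Cldn5, Adgre1, Emcn and Mrc1, lie outside this rule and were chosen after their values were seen. The fat cell genes Plin1, Lipe, Fabp4, Retn and Cfd, the beige genes Ppargc1a and Dio2 and the stromal markers Lum and Cd34 also lie outside the rule. They were added after their values were seen. Ddit3, with 2 gene identifiers, was read through the lower-numbered one. Alternatives were DESeq2 1.42.0, limma 3.58.1 on log2(TPM + 1) and log2(TPM + 0.1), DESeq2 size factors, no count filter, a replicate block, a length offset, protein-coding genes or transcripts only, and leaving out each library. The tests were tried on simulated counts. Python 3.11.15, pandas 2.3.3 and matplotlib 3.10.9 were used for sums and plots.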

Additional observations from a re-analysis of the deposited data

How the results depend on the processing

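None of the 10 factors passed the adjusted threshold under any of the 13 alternatives, with the lowest adjusted p at 0.134 for Cebpb without Mmp3-negative replicate 2. Some log2 fold changes depended on which Mmp3-negative library was left out. Rxra was at -0.64 without Mmp3-negative replicate 1 and at 0.38 without replicate 2. In the same order Cebpb was at 0.0064 and -0.92, and Zfp423 at 0.63 and -1.24. Each of these fits left 1 library in the Mmp3-negative group. The median log2 fold change of the 10, -0.23 in the analysis as reported, ran from -0.51 to 0.01. It was 0.01 with limma on log2(TPM + 1), where the median of all genes was 0.29, and 0.003 with log2(TPM + 0.1), where it was 0.37. Pparg kept its sign in all 13 alternatives (0.25 to 1.58), as did Ebf1 (-0.45 to -0.17) and Prdm16 (-1.64 to -0.34). All genes past the threshold, 3 in the analysis as reported, numbered 27 with no count filter, 979 with the DESeq2 Wald test, 1 each with the length offset and with protein-coding transcripts only and 0 with limma on log2(TPM + 1) or log2(TPM + 0.1), where 1064 and 1163 genes had an unadjusted p under 0.05. Leaving out a library gave 3 to 353 genes, 332 and 353 when the library left out was an Mmp3-negative one. The cause was not tested.

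The set number as a replicate block gave 5 genes past the threshold and 0 of the 10 factors. Deviations of same-numbered libraries from their group means had a correlation of 0.024 over genes, with 2 pairs. The labels do not say what the set number marks, and 2 pairs cannot show whether it marks a shared animal, sort or day. Values that turned direction were all far from the threshold. Cebpa was -0.033 with DESeq2 size factors, -0.033 with DESeq2's Wald test, -0.014 with the replicate block, -0.061 with the length offset and -0.024 with protein-coding transcripts only. Ebf2 was 0.021 with the length offset, and 0.18 and 0.19 with limma on log2(TPM + 1) and log2(TPM + 0.1), where Rxra was 0.14 and 0.15. Without a library in turn the ranges were -0.53 to 0.42 for Cebpa, -0.92 to 0.0064 for Cebpb, -0.0201 to 0.44 for Cebpd, -1.24 to 0.63 for Zfp423, -1.03 to 0.14 for Zfp521, -0.63 to 0.37 for Ebf2 and -0.64 to 0.38 for Rxra.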
